A study of Zea mays with 40 samples.

Results

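Carotenoid synthesis and cleavage were followed through 9 maize genes in filling kernels. The genes were chosen by name, as the enzymes that make carotenoids from their first committed step to the epoxidation of zeaxanthin, together with a dioxygenase that cleaves carotenoids. They are 9 of the 65196 rows of the deposited table. Of these, 7 were listed under their GRMZM names, which are GRMZM2G300348 (psy1), GRMZM2G011746 (z-iso), GRMZM2G012966 (lcyE), GRMZM5G849107 (lcyB), GRMZM2G152135 (crtRB1), GRMZM2G127139 (zep1), and GRMZM2G057243 (ccd1). The remaining 2, GRMZM2G410515 (pds1) and GRMZM2G454952 (zds1), were listed under the symbols PDS1 and ZDS1. All 9 reached 1 FPKM in at least 2 libraries, which was the filter for the 43394 genes tested. RefSeq, in its annotation of Zm-B73-REFERENCE-NAM-5.0, pairs the GRMZM name with the symbol for psy1, pds1, zds1, lcyE, crtRB1, and ccd1. For z-iso, lcyB, and zep1 the symbol came from the choice of the genes alone.

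Carotenoids are plastid pigments built from geranylgeranyl diphosphate, which the plastid makes from pyruvate and glyceraldehyde phosphate. Phytoene is formed first and is desaturated and isomerized to red lycopene. At lycopene the path forks, since the epsilon cyclase commits it to the lutein branch and the beta cyclase alone leads to beta-carotene, which hydroxylation turns into zeaxanthin and epoxidation into violaxanthin, the source of abscisic acid. In yellow maize the endosperm stores lutein and zeaxanthin, whereas the embryo needs abscisic acid made from epoxycarotenoids to enter dormancy.

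RNA was sequenced from kernels of the inbred lines T191, T147, T209, and T210 at 5 times, which were 10, 20, 30, 40, and 50 DAP, with DAP standing for days after pollination. Every combination of line and DAP, 20 in all, held 2 libraries, from the middle of 2 ears taken as biological repeats. The study names its fast- and slow-filling lines YZU191 and YZU147, which were matched to T191 and T147 by number, and T209 and T210 are then the parents of its mapping population, although the labels do not say which parent each is. Lines are named below as the libraries are labelled, and no transgene, mutant, or treatment was involved.

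Values are FPKM, the fragments on a gene per kilobase of its length, scaled to the mapped fragments of the library, so that levels can be compared between genes. Tests used log2(FPKM + 1) in limma with all 20 groups in 1 model, and every adjusted p is from limma with Benjamini-Hochberg adjustment over the 43394 genes. Because 1 is added to each value, differences come out too small where FPKM is low, as for psy1, lcyE, and zep1. The number of reads is unknown, so that no interval from counting can be given. From the steps between low values, depth relative to the median library was 0.650 to 1.19 in T191, 0.612 to 1.61 in T147, 0.903 to 2.30 in T209, and 0.866 to 2.07 in T210, and the spread over genes gave Spearman's rho of 0.843 to 0.967 between the 2 libraries of a group.

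The kernels were checked against tissue markers. The summed FPKM of 5 starchy endosperm genes (wx1, sh2, bt2, bt1, and o2) spanned 2059 to 5125 at 10 DAP, 1678 to 3922 at 20 DAP, 44.8 to 2911 at 30 DAP, 6.63 to 20.3 at 40 DAP, and 3.11 to 12.6 at 50 DAP. The summed FPKM of 2 genes of the embryo, vp1 and the globulin gene GRMZM2G026703, was 4.82 to 85.3 at 10 DAP, 43.7 to 15721 at 20 DAP, 6620 to 26699 at 30 DAP, 789.5 to 9519 at 40 DAP, and 2441 to 8380 at 50 DAP. The value of 43.7 came from a library of T191, beside 9148 in the other library of that group. From 20 DAP on, GRMZM2G026703 made up nearly all of the median sum. Its median was 14991 FPKM at 30 DAP and 4291 at 40 DAP, whereas vp1 went the other way, with 36.4 and 85.8 FPKM. A green tissue gene of the Rubisco small subunit, GRMZM2G113033, stayed at or below 0.736 FPKM. At 30 DAP the endosperm sum was 44.8 to 204 in T191 and 1345 to 2473 in T147, and it was 208.8 to 329 in T209 and 946 to 2911 in T210. The late libraries thus held little RNA of starchy endosperm genes, and at 30 DAP T191 and T209 held less of it than T147 and T210. In whole kernels, fewer cells of a type and less RNA per cell cannot be told apart, and the part of tissue make-up in the results below was not tested.

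The 9 genes covered a wide range of levels. crtRB1 was the highest, with a median of 97.9 FPKM over the 40 libraries (33.1 to 288), and 98.5% of the genes tested had a lower mean. z-iso (median 8.95 FPKM), pds1 (6.44 FPKM), ccd1 (5.82 FPKM), and zds1 (4.58 FPKM) formed a middle group, with ranges that overlapped one another. The order leaves out a second row of pds1 (median 6.82 FPKM) and of zds1 (median 1.41 FPKM), described below. lcyB (2.77 FPKM), zep1 (1.94 FPKM), psy1 (0.800 FPKM), and lcyE (0.696 FPKM) were the lowest, and 35.99% of the genes tested had a lower mean than psy1.

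**Figure D1:**
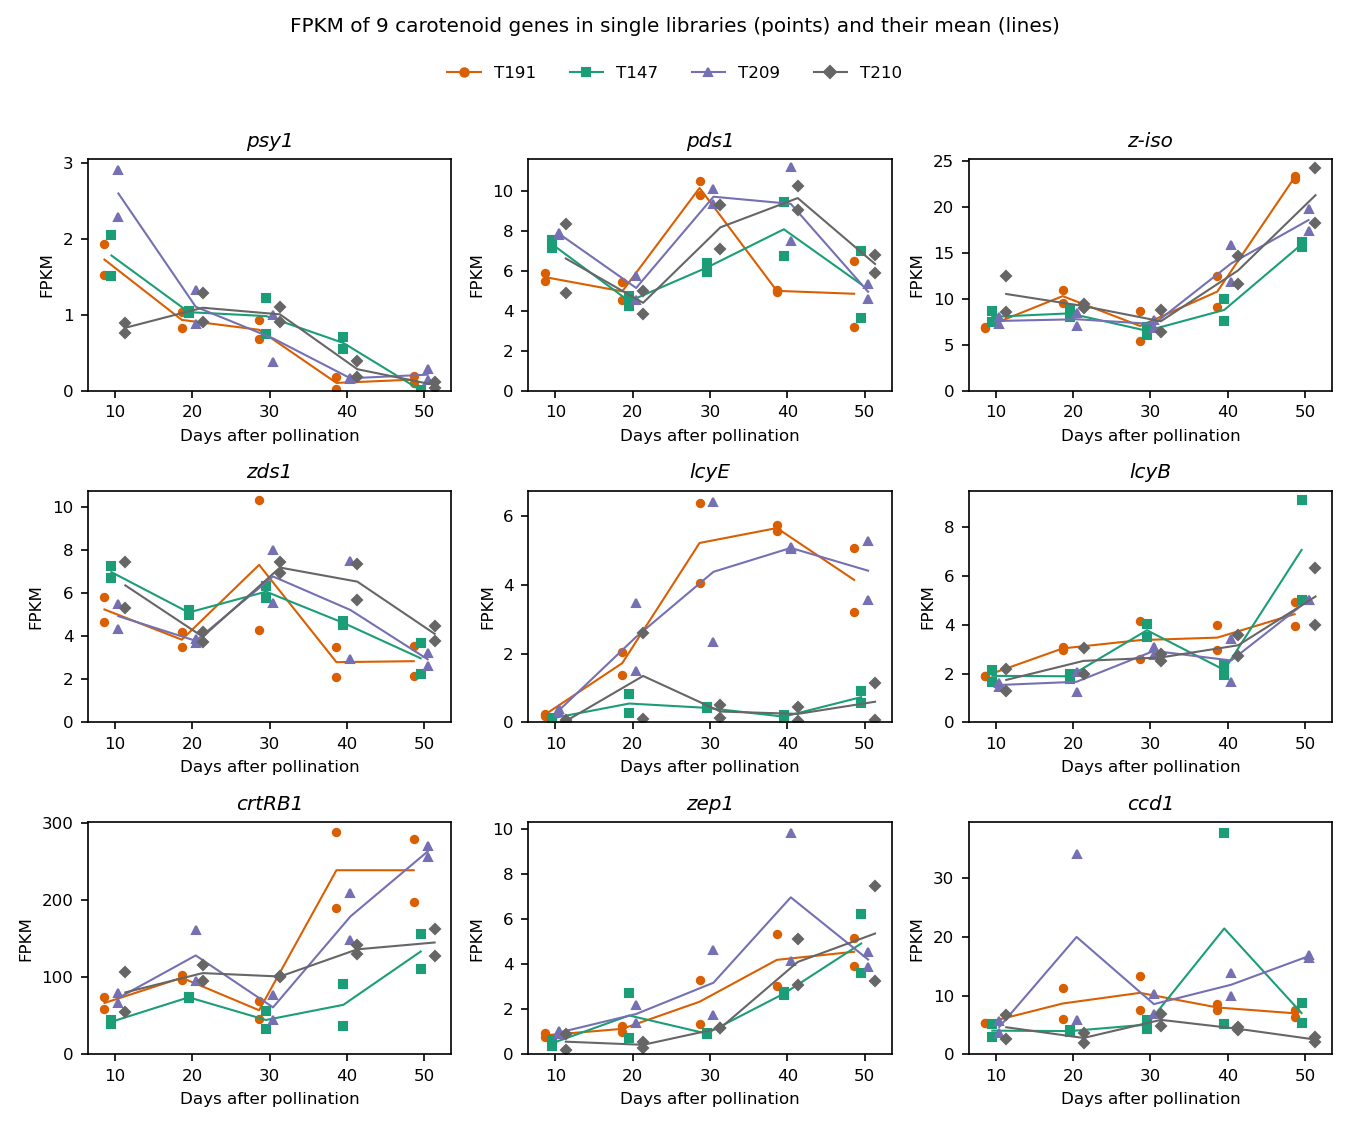
FPKM (vertical axes, each with its own scale from 0) of the 9 genes at 10 to 50 DAP (horizontal axes) in T191, T147, T209, and T210, with a point for each library and a line through the mean of the 2 libraries of a group. psy1 lies at or below 0.287 FPKM in all libraries at 50 DAP, lcyE parts T191 and T209 from T147 and T210 from 30 DAP on, and 1 library each of T209 at 20 DAP and T147 at 40 DAP stands apart for ccd1 at 34.2 and 37.8 FPKM.

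Between late filling (the mean of 40 and 50 DAP) and early filling (the mean of 10 and 20 DAP), 6 of the 9 genes rose, 2 fell, and pds1 passed the test in neither direction. Averaged over the 4 lines, zep1, crtRB1, lcyE, z-iso, lcyB, and ccd1 were higher late, and psy1 and zds1 were lower late. The background for these counts is high, because 74.8% of all genes tested differed between late and early filling, 37.6% being higher and 37.2% lower late. The median difference was 0.70 on the log2(FPKM + 1) scale over the 9 genes and 0.01 over all genes tested.

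psy1 encodes phytoene synthase, the first committed step, and is the yellow1 locus of maize, which underlies yellow against white endosperm. Its FPKM at 10 DAP was 1.94 and 1.52 in T191, 2.06 and 1.51 in T147, 2.91 and 2.30 in T209, and 0.766 and 0.898 in T210. At 50 DAP it was 0.10 and 0.196 in T191, 0.0160 and 0 in T147, 0.140 and 0.287 in T209, and 0.0364 and 0.118 in T210. In each line, the 4 libraries of late filling were all below the 4 of early filling. The late minus early difference was -0.97 (standard error 0.07, adjusted p = 3.27e-12), and it came in steps, of which 20 minus 10 DAP (-0.38, adjusted p = 0.00301) and 40 minus 30 DAP (-0.54, adjusted p = 0.000113) passed the test. The first of these steps was lost after rescaling of the libraries to their median ratio (-0.24, adjusted p = 0.0693) and with a pseudocount of 0.1 (adjusted p = 0.0523).

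The group means of psy1 took different courses in the lines, but the test of this was passed narrowly (moderated F test in limma, adjusted p = 0.0499). That call held in 6 of the 40 fits without 1 library. It was lost with the ear number as a replicate block (adjusted p = 0.0603). At 10 DAP, T209 was higher than T210 by 0.97 (standard error 0.19, adjusted p = 0.00123, against 10.6% of all genes called in that comparison), and psy1 was the only one of the 9 genes called there. The highest mean of T210 came at 20 DAP, with 1.10 FPKM, and that of the other lines at 10 DAP. Averaged over the 5 DAP, psy1 was called in none of the 6 comparisons between lines, with -0.12 for T191 minus T147 (adjusted p = 0.344) and 0.15 for T209 minus T210 (adjusted p = 0.185). In T147 the decline came later, since its 2 libraries had 0.715 and 0.548 FPKM at 40 DAP, above the 0.0208 to 0.388 FPKM of the other 6 libraries at that time. The difference of T191 minus T147 at 40 DAP was -0.57 and missed the threshold (adjusted p = 0.0542). It passed with a pseudocount of 0.1 (-1.96, adjusted p = 0.00564), with no filter (adjusted p = 0.0413), and after rescaling (-0.58, adjusted p = 0.0482).

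The desaturation and isomerization steps from phytoene to lycopene are served by pds1 (phytoene desaturase), z-iso (zeta-carotene isomerase), and zds1 (zeta-carotene desaturase, mutated in viviparous9). pds1 and zds1 had similar courses. The median of pds1 over the 8 libraries of a time was 7.34 FPKM at 10 DAP, 4.62 at 20 DAP, 9.30 at 30 DAP, 8.27 at 40 DAP, and 5.61 at 50 DAP. That of zds1 was 5.66, 4.03, 6.63, 4.61, and 3.37 FPKM at the same times. Both medians thus dipped at 20 DAP and were highest at 30 DAP, though the step of zds1 from 10 to 20 DAP did not pass the test. Single lines had their highest mean at other times, zds1 at 10 DAP in T147 and pds1 at 40 DAP in T147 and T210.

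Both genes were higher at 30 than at 20 DAP, pds1 by 0.71 (standard error 0.14, adjusted p = 0.000217) and zds1 by 0.57 (standard error 0.16, adjusted p = 0.00665), a step in which 36.9% of all genes were called. zds1 was lower at 40 than at 30 DAP by -0.48 (standard error 0.16, adjusted p = 0.0222), and pds1 was lower at 50 than at 40 DAP by -0.49 (standard error 0.14, adjusted p = 0.00778). pds1 was also lower at 20 than at 10 DAP, by -0.44 (adjusted p = 0.0133), but that call was lost after rescaling (-0.22, adjusted p = 0.223). Over late minus early filling zds1 was lower by -0.31 (adjusted p = 0.0176), whereas pds1 gave 0.14 (adjusted p = 0.186), or 0.23 after rescaling (adjusted p = 0.0323). A second row of the table exists for each, GRMZM5G815358 for pds1 (2.44 to 13.3 FPKM) and GRMZM2G454928 for zds1 (0.417 to 4.53 FPKM), both of which RefSeq lists as other names of the same gene, so that the reads of these genes may be divided. The GRMZM names of pds1 and zds1 are each also given as a synonym of 2 RefSeq genes. A copy that shares their reads cannot be told apart here.

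z-iso rose late. Its median was 7.73 FPKM at 10 DAP, 8.95 at 20 DAP, 6.90 at 30 DAP, 11.7 at 40 DAP, and 19.0 at 50 DAP. All 8 libraries at 50 DAP (15.7 to 24.3 FPKM) were above every library at 10, 20, and 30 DAP, where the highest was 12.5 FPKM. The step of 30 minus 20 DAP was -0.30 and missed the threshold (adjusted p = 0.0505), but passed after rescaling (-0.32, adjusted p = 0.0182). The rise passed the test at 40 minus 30 DAP (0.62, adjusted p = 0.000186) and at 50 minus 40 DAP (0.73, adjusted p = 4.19e-05), where 35.9% and 32.8% of all genes were called. The late minus early difference was 0.75 (standard error 0.08, adjusted p = 1.60e-08). Among lines, T147 was lower than T210 by -0.31 (adjusted p = 0.0445, with 18.2% of all genes called), a call that held in 21 of the 40 fits made without 1 library.

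lcyE, the lycopene epsilon cyclase that opens the lutein branch, had the largest difference of the 9 genes in both pairs of lines. From 30 DAP on its level was 2.35 to 6.42 FPKM in T191 and T209 and 0.0380 to 1.13 FPKM in T147 and T210. In T191 it had 0.258 and 0.200 FPKM at 10 DAP, 2.06 and 1.39 at 20 DAP, 4.05 and 6.39 at 30 DAP, 5.75 and 5.56 at 40 DAP, and 5.08 and 3.21 at 50 DAP. In T147 it had 0.129 and 0.109 FPKM at 10 DAP, 0.840 and 0.261 at 20 DAP, 0.442 and 0.407 at 30 DAP, 0.221 and 0.116 at 40 DAP, and 0.922 and 0.552 at 50 DAP. At each of the 5 DAP, the 2 libraries of T191 were above those of T147.

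In T209, lcyE had 0.319 and 0.378 FPKM at 10 DAP, 1.50 and 3.48 at 20 DAP, 2.35 and 6.42 at 30 DAP, 5.04 and 5.12 at 40 DAP, and 5.27 and 3.57 at 50 DAP. In T210 it had 0.0669 and 0.0141 FPKM at 10 DAP, 0.109 and 2.60 at 20 DAP, 0.508 and 0.127 at 30 DAP, 0.461 and 0.0380 at 40 DAP, and 0.0708 and 1.13 at 50 DAP. The 2 libraries of T209 were above those of T210 at 4 of 5 DAP, and at 20 DAP they overlapped because of the library of T210 with 2.60 FPKM. The line medians were 3.63 FPKM in T191, 0.334 in T147, 3.52 in T209, and 0.118 in T210.

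Averaged over the 5 DAP, lcyE was higher in T191 than in T147 by 1.43 (standard error 0.19, adjusted p = 3.15e-06) and higher in T209 than in T210 by 1.44 (standard error 0.19, adjusted p = 1.31e-06). Leaving out each of the 40 libraries in turn gave 1.37 to 1.48 for T191 minus T147 and 1.27 to 1.61 for T209 minus T210, past the threshold in all 40 fits. With a pseudocount of 0.1 the differences were 2.46 and 2.86, as the smaller offset compresses low values less. T191 and T209 differed by -0.02 (adjusted p = 0.980) and T147 and T210 by -0.01 (adjusted p = 0.988), with standard errors of 0.19. The crossed comparisons gave 1.42 for T191 minus T210 (adjusted p = 3.12e-06) and -1.44 for T147 minus T209 (adjusted p = 1.90e-06).

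On the log2(FPKM + 1) scale, the gap in lcyE was wider from 30 DAP on than at 10 and 20 DAP. For T191 minus T147 it was 0.13 at 10 DAP (adjusted p = 1.00), 0.83 at 20 DAP (adjusted p = 0.261), 2.10 at 30 DAP (adjusted p = 0.00120), 2.51 at 40 DAP (adjusted p = 0.000171), and 1.55 at 50 DAP (adjusted p = 0.0194). Of all genes, 6.24%, 6.30%, 12.5%, 13.8%, and 8.69% were called at these times. For T209 minus T210 it was 0.37 at 10 DAP (adjusted p = 0.862), 0.74 at 20 DAP (adjusted p = 0.371), 1.93 at 30 DAP (adjusted p = 0.00244), 2.30 at 40 DAP (adjusted p = 0.000233), and 1.82 at 50 DAP (adjusted p = 0.00329), against 10.6%, 7.13%, 13.0%, 27.4%, and 17.9% of all genes. In both pairs of lines, lcyE was called at 30, 40, and 50 DAP and not at 10 or 20 DAP. At 50 DAP, T191 minus T147 was not called with a pseudocount of 0.1 (2.34, adjusted p = 0.117). The added 1 shrinks the gap most at 10 DAP, where lcyE lay between 0.0141 and 0.378 FPKM. In mean FPKM, T209 had 0.349 and T210 0.0405 at 10 DAP, and 4.42 and 0.603 at 50 DAP. T191 had 0.229 and T147 0.119 at 10 DAP, and 4.15 and 0.737 at 50 DAP. The tests of the late rise between lines, given below, were lost with a pseudocount of 0.1.

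The 30 DAP difference stood beside a difference in the endosperm markers given above, which were lower in T191 and T209 than in T147 and T210. At 40 DAP, when the endosperm sum was 20.3 FPKM or less in all lines (7.22 to 11.0 in T191, 16.1 to 20.3 in T147, 6.63 to 9.95 in T209, and 8.52 to 12.1 in T210), the lcyE difference was at its largest in both pairs. The summed FPKM of the 2 embryo markers at 40 DAP was 5153 to 9519 in T191 and 789.5 to 3319 in T147, and 5426 to 6128 in T209 and 1824 to 3544 in T210. At the time of the largest lcyE difference this sum, nearly all of it GRMZM2G026703, was thus higher in T191 and T209 as well. In limma, 0 of the 2 embryo markers were called at 40 DAP in either pair, also 0 at an unadjusted p under 0.05. Of all genes, 13.8% and 27.4% were called there. The part of the embryo markers in the lcyE difference was not tested. At 50 DAP the embryo sum of T191 (4162 to 6997) overlapped that of T147 (4559 to 4753), while that of T209 (3442 to 8380) was above that of T210 (2441 to 2515). The GRMZM name of lcyE is given as a synonym of 2 RefSeq genes, so a copy that shares its reads cannot be told apart from it here.

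**Figure D2:**
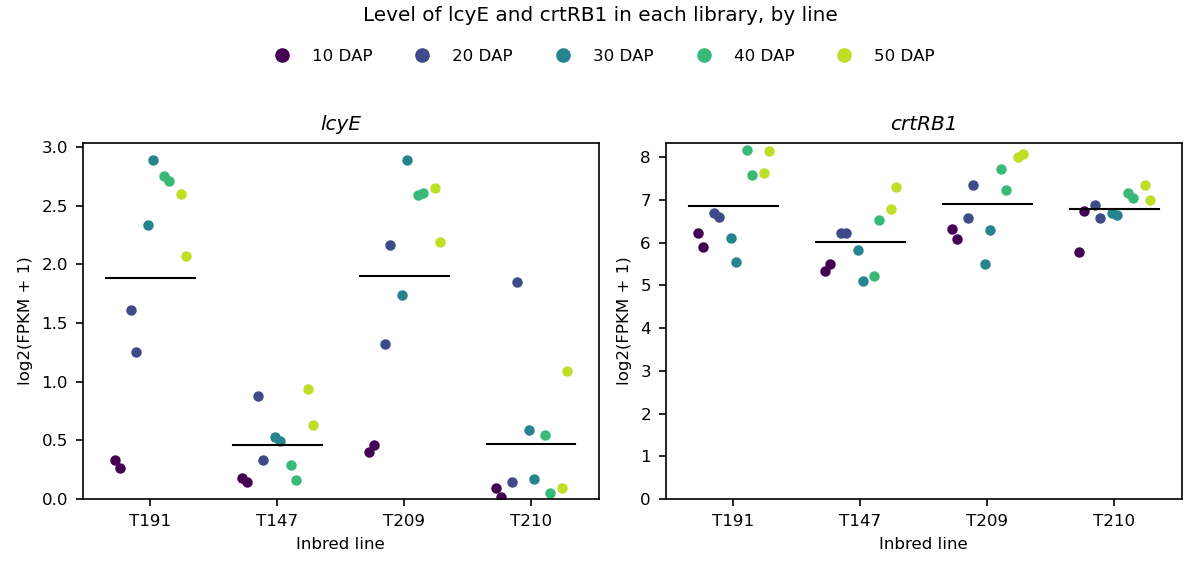
Level of lcyE (left) and crtRB1 (right) as log2(FPKM + 1) in each library (points), by line (horizontal axis) and colored by DAP, with black bars for the mean of the 10 libraries of a line. For lcyE the bars of T191 and T209 lie 1.43 and 1.44 above those of T147 and T210, and for crtRB1 the bar of T147 is the lowest of the 4 lines.

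The late rise of lcyE itself differed between lines. Late minus early filling was 1.67 in T191 and 0.12 in T147, and 1.42 in T209 and -0.08 in T210, on the log2(FPKM + 1) scale with 4 late and 4 early libraries in each line. In T191 and T209, every late library was above every early one, and in T147 and T210 the late and early libraries overlapped. The difference of the rises was 1.55 for T191 minus T147 (standard error 0.42, adjusted p = 0.0193) and 1.50 for T209 minus T210 (standard error 0.42, adjusted p = 0.0131), where 9.77% and 19.5% of all genes were called. Neither passed with a pseudocount of 0.1, which gave 2.30 (adjusted p = 0.116) and 2.06 (adjusted p = 0.115). The mean rise over the 4 lines, 0.78 (adjusted p = 4.16e-05), therefore averages lines that rose with lines whose late and early libraries overlapped.

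lcyB encodes lycopene beta cyclase, which acts in both branches. In contrast to lcyE, it was called in none of the 6 comparisons between lines. Its median was 1.78 FPKM at 10 DAP, 2.03 at 20 DAP, 2.94 at 30 DAP, 2.85 at 40 DAP, and 5.02 at 50 DAP. The highest library was T147 at 50 DAP with 9.09 FPKM, beside 5.03 FPKM in the other library of that group. Every library at 50 DAP (3.95 to 9.09 FPKM) was above every library at 10 and 20 DAP, where the highest was 3.09 FPKM. Late minus early filling was 0.70 (standard error 0.10, adjusted p = 5.79e-07), and the step of 50 minus 40 DAP was 0.74 (adjusted p = 0.000222). The step of 30 minus 20 DAP (0.37, adjusted p = 0.0408) held in 28 of the 40 fits without 1 library. The difference between lines was 0.06 for T191 minus T147 (standard error 0.12, adjusted p = 0.775) and -0.13 for T209 minus T210 (standard error 0.12, adjusted p = 0.415).

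crtRB1 is a beta-carotene hydroxylase, listed in RefSeq also as HYD3, and alleles of it and of lcyE are used in breeding maize for provitamin A. It was the most abundant of the 9 transcripts in every library but the T147 library at 40 DAP in which ccd1 had 37.8 FPKM and crtRB1 36.4 FPKM. In T191 it had 73.9 and 58.9 FPKM at 10 DAP, 102 and 96.1 at 20 DAP, 68.4 and 45.5 at 30 DAP, 288 and 189 at 40 DAP, and 198 and 280 at 50 DAP. In T147 it had 39.6 and 44.4 FPKM at 10 DAP, 73.4 and 74.1 at 20 DAP, 55.5 and 33.1 at 30 DAP, 36.4 and 91.6 at 40 DAP, and 110 and 157 at 50 DAP. The libraries of T191 were above those of T147 at 4 of 5 DAP, and at 30 DAP they overlapped.

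In T209, crtRB1 had 79.2 and 66.5 FPKM at 10 DAP, 94.6 and 162 at 20 DAP, 44.4 and 77.0 at 30 DAP, 208.9 and 149 at 40 DAP, and 257 and 270 at 50 DAP. In T210 it had 54.1 and 106 FPKM at 10 DAP, 116 and 94.5 at 20 DAP, 102 and 99.7 at 30 DAP, 142 and 130 at 40 DAP, and 163 and 127 at 50 DAP. T209 thus dipped at 30 DAP and ended high, whereas T210 stayed within a narrower range.

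crtRB1 was higher in T191 than in T147 by 0.85 (standard error 0.18, adjusted p = 0.000746), and lower in T147 than in T209 by -0.91 (adjusted p = 0.000316) and than in T210 by -0.78 (adjusted p = 0.00190). Of all genes, 22.4% were called in T191 minus T147, 25.0% in T147 minus T209, and 18.2% in T147 minus T210. All 3 differences held in each of the 40 fits without 1 library. T209 minus T210 was 0.13 (standard error 0.18, adjusted p = 0.599), so that T147 was the line that stood apart. At single times T191 minus T147 passed the test at 40 DAP alone (2.00, adjusted p = 0.000995), where the 2 libraries of T147 had 36.4 and 91.6 FPKM. Without the library of T147 at 36.4 FPKM, which also stood apart for ccd1, and a library of T209 at 20 DAP, that value was 1.34 (adjusted p = 0.0624).

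Over time crtRB1 went up, down, and up again. It was higher at 20 than at 10 DAP by 0.65 (adjusted p = 0.0108, with 35.6% of all genes called), lower at 30 than at 20 DAP by -0.68 (adjusted p = 0.00818), and higher at 40 than at 30 DAP by 1.12 (standard error 0.20, adjusted p = 7.56e-05). Late minus early filling was 1.00 (standard error 0.14, adjusted p = 5.48e-07). By line this difference was 1.52 in T191, 0.64 in T147, 1.18 in T209, and 0.64 in T210, and a moderated F test for different courses of the 4 lines was not passed (adjusted p = 0.199). Over the 9 genes that F test called lcyE (adjusted p = 0.0360) and psy1 (adjusted p = 0.0499), while it called 22.9% of all genes. The call of lcyE was lost with a pseudocount of 0.1 (adjusted p = 0.311) and with no filter (adjusted p = 0.0663). That of psy1 was lost with the ear number as a replicate block (adjusted p = 0.0603) and held in 6 of the 40 fits without 1 library.

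zep1 encodes zeaxanthin epoxidase, which leads from zeaxanthin to violaxanthin and so toward abscisic acid. It had the largest late minus early difference of the 9 genes, 1.50 (standard error 0.15, adjusted p = 1.30e-09). Its median was 0.820 FPKM at 10 DAP, 1.12 at 20 DAP, 1.26 at 30 DAP, 3.61 at 40 DAP, and 4.25 at 50 DAP. In T191, T209, and T210, each late library was above each early one. In T147 they overlapped, since a library at 20 DAP reached 2.73 FPKM and those at 40 DAP had 2.62 and 2.76 FPKM. The single step that passed was 40 minus 30 DAP (0.94, standard error 0.21, adjusted p = 0.000910). zep1 was higher in T209 than in T210 by 0.51 (standard error 0.19, adjusted p = 0.0298), but not after rescaling (0.42, adjusted p = 0.0526). It passed in 32 of the 40 fits without 1 library, the value ranging from 0.41 to 0.62.

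ccd1 encodes a carotenoid cleavage dioxygenase that breaks carotenoids into volatile apocarotenoids, and RefSeq lists it also as wc1, the white cap locus, which in maize can carry many copies of the gene. In T209 it had 3.59 and 5.65 FPKM at 10 DAP, 34.2 and 5.85 at 20 DAP, 6.79 and 10.3 at 30 DAP, 9.84 and 13.9 at 40 DAP, and 16.5 and 17.0 at 50 DAP. In T210 it had 6.61 and 2.56 FPKM at 10 DAP, 1.95 and 3.56 at 20 DAP, 6.81 and 4.88 at 30 DAP, 4.58 and 4.06 at 40 DAP, and 2.89 and 2.06 at 50 DAP. The libraries of T209 were wholly above those of T210 at 3 of 5 DAP.

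ccd1 ranged from 5.23 to 13.3 FPKM in T191, with a median of 7.50 FPKM, and from 2.93 to 37.8 FPKM in T147, with a median of 5.11 FPKM. The library of T147 with 37.8 FPKM, at 40 DAP, stood beside one with 5.14 FPKM in the same group, as the library of T209 with 34.2 FPKM stood beside one with 5.85 FPKM. These 2 libraries were left out together in a further fit, chosen after the values were seen.

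ccd1 was higher in T209 than in T210 by 1.25 (standard error 0.27, adjusted p = 0.000709), in all 40 fits without 1 library (1.01 to 1.49). It was also higher in T191 than in T210 by 0.86 (adjusted p = 0.0206, with 28.6% of all genes called), in 38 of those 40 fits. At single times T209 minus T210 passed at 50 DAP (2.36, adjusted p = 0.00828) and at 20 DAP (2.08, adjusted p = 0.0379), which is the time of the high library. With both high libraries left out, the value at 20 DAP was 0.90 (adjusted p = 0.320). T191 minus T147 was 0.28 (adjusted p = 0.509) with all libraries and 0.55 (adjusted p = 0.0252) without the 2 high ones. Late minus early filling was 0.49 (adjusted p = 0.0433), a call that held in 19 of the 40 fits without 1 library and was lost with no filter on low values (adjusted p = 0.0693).

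**Figure D3:**
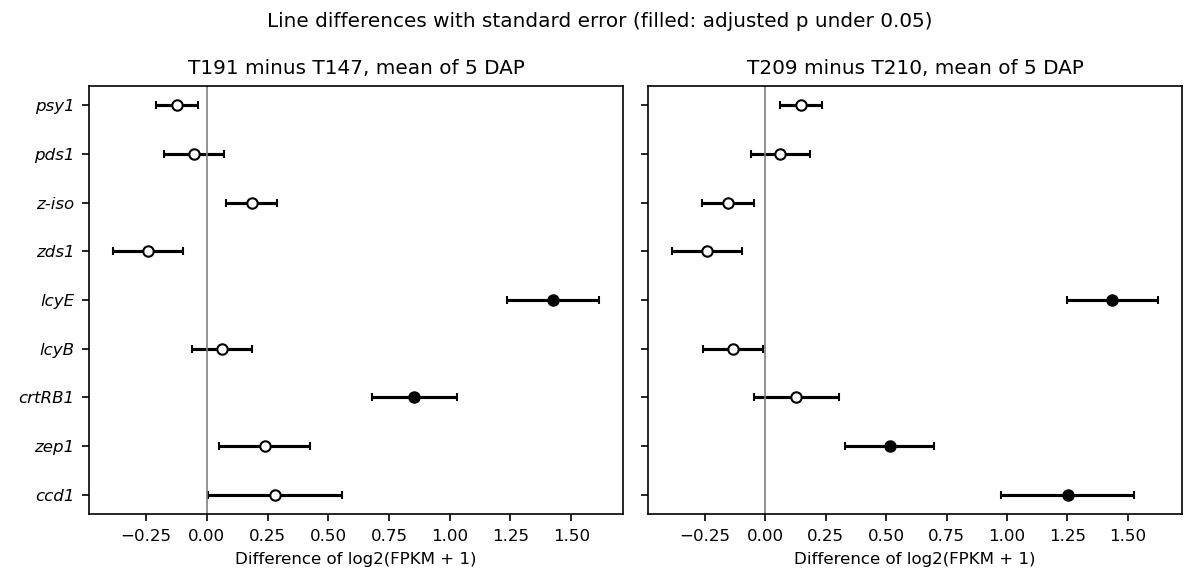
Difference of log2(FPKM + 1), averaged over 5 DAP, of T191 minus T147 (left) and T209 minus T210 (right) for the 9 genes in pathway order, with bars of 1 standard error and filled points where the adjusted p was under 0.05. lcyE is filled in both panels at 1.43 and 1.44, crtRB1 in the left panel alone (0.85), and ccd1 (1.25) and zep1 (0.51) in the right panel alone.

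Counted over the 9 genes, 2 were higher and 0 lower in T191 than in T147 (lcyE and crtRB1), where 11.8% of all genes were higher and 10.6% lower. In T209 against T210, 3 were higher (lcyE, ccd1, and zep1) and 0 lower, where 40.0% of all genes were called, 23.2% being higher and 16.9% lower. After rescaling, the count was 2 higher and 2 lower, since zep1 was lost and zds1 (-0.32, adjusted p = 0.0367) and z-iso (-0.25, adjusted p = 0.0400) were called lower in T209. T191 minus T209 called 0 of the 9 genes in limma, also 0 at an unadjusted p under 0.05, while 11.5% of all genes were called. The median over the 9 genes was 0.18 for T191 minus T147 and 0.13 for T209 minus T210, beside 0.03 and 0.08 over all genes tested. Averaged over the 5 DAP, the 5 endosperm markers were all lower in T191 than in T147, by -0.69 to -1.23 (adjusted p from 0.00258 to 0.0310). In the same average, 0 of 5 were called in T209 minus T210, where 1 had an unadjusted p under 0.05. At 30 DAP, 5 of 5 were lower in T191 than in T147 (median -3.96, with 12.5% of all genes called). At that time 4 of 5 were lower in T209 than in T210 (median -2.20, with 13.0% of all genes called). At each other DAP, 0 of 5 were called in either pair. Whether a gene called in 1 pair of lines and not in the other differed between the pairs was not tested.

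The steps that supply geranylgeranyl diphosphate were followed in a list of 12 genes, of which 11 were in the table and 10 were tested. From early to late filling 6 of the 10 rose and 2 fell, where 74.8% of all genes were called. The rises were those of dxs2 (2.56) and dxs1 (2.43), which make the first intermediate of the plastid pathway, hdr (2.12), which makes its end products, GRMZM2G137409 (2.11), listed in RefSeq as Hds1, GRMZM2G133082 (1.63), and dxr (0.77), which encodes the second enzyme. GRMZM2G108285 (-2.71) and GRMZM2G173641 (-0.42) fell, and adjusted p was 0.000730 or less for each of the 8. Of the 10 genes, 7 were lower at 50 than at 40 DAP, among them dxr by -2.16 (adjusted p = 5.43e-07) and dxs2 by -1.47 (adjusted p = 2.51e-05), and 0 were higher, where 32.8% of all genes were called. Not every gene that rose fell again. The median of dxs1 was 20.0 FPKM at 40 DAP and 27.1 at 50 DAP, and that of GRMZM2G133082 was 42.6 and 43.8 FPKM. The late level of dxr was high at 40 DAP alone, with a median of 9.70 FPKM. Its median at 50 DAP, 0.991 FPKM, was below those at 10 DAP (1.64 FPKM) and 20 DAP (2.09 FPKM). Averaged over the 5 DAP, dxs1 alone was called in T191 minus T147 (0.69, adjusted p = 0.00661, with 22.4% of all genes called). At single times the same pair of lines differed in opposite directions. At 30 DAP 4 of the 10 were higher in T191 and 1 lower (12.5% of all genes called), and at 40 DAP 0 were higher and 4 lower (13.8% of all genes called). dxr had 2.17 at 30 DAP (adjusted p = 0.00502) and -3.09 at 40 DAP (adjusted p = 0.000152), hdr had 1.95 (adjusted p = 0.00187) and -1.65 (adjusted p = 0.00726), and GRMZM2G137409 had 2.42 (adjusted p = 0.00127) and -2.15 (adjusted p = 0.00357). For dxr, hdr, and GRMZM2G137409, the highest value at 40 DAP was in a library of T147, with 51.3, 157, and 145 FPKM. Their medians over the libraries of T147 were 1.90, 7.97, and 5.63 FPKM. The calls at 40 DAP were not checked without the T147 library that stood apart for ccd1. The F test for different courses of the 4 lines called 6 of the 10, where 22.9% of all genes were called. In T209 minus T210, averaged over the 5 DAP, limma called 0 of 10, where 40.0% of all genes were called. An unadjusted p under 0.05 was found for 2 of them.

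Of 9 genes for other carotenoid steps, 8 were in the table and 7 were tested, since psy2, a second phytoene synthase, stayed at or below 0.755 FPKM and did not pass the filter. From early to late filling 3 rose and 3 fell, where 74.8% of all genes were called. The genes that rose were GRMZM2G382534 (2.92, adjusted p = 5.59e-11) and the carotenoid isomerase genes crtiso2 (0.80, adjusted p = 2.09e-06) and crtiso1 (0.40, adjusted p = 0.000119). GRMZM2G164318 fell by 1.52 (adjusted p = 1.86e-12). It is listed in RefSeq as HYD1, a hydroxylase gene like crtRB1, which rose over the same period. GRMZM5G837869 (-0.96) and GRMZM2G027219 (-0.72) fell as well. In T209 against T210, GRMZM2G382534 (1.08, adjusted p = 0.00641), GRMZM2G143202 (0.51, adjusted p = 0.000934), and crtiso2 (0.45, adjusted p = 0.0230) were higher, where 40.0% of all genes were called, while GRMZM2G382534 was lower in T191 than in T147 (-0.84, adjusted p = 0.0490).

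Other dioxygenase genes gave a list of 5, all in the table, of which 4 were tested. GRMZM2G408158 (1.65, adjusted p = 4.58e-06) and GRMZM5G838285 (1.23, adjusted p = 3.44e-07) were higher in late than in early filling, and ccd8, which acts in strigolactone synthesis, was lower by 0.73 (adjusted p = 3.90e-07). In that comparison 74.8% of all genes were called. The median of GRMZM2G408158 was 0 FPKM at 10 DAP, 2.00 at 20 DAP, 14.1 at 30 DAP, 4.21 at 40 DAP, and 4.79 at 50 DAP, so that it was highest at 30 DAP. vp14, which encodes the dioxygenase that makes the precursor of abscisic acid, was higher at 30 than at 20 DAP (0.65, adjusted p = 0.000247) and lower at 40 than at 30 DAP (-0.83, adjusted p = 1.23e-05). Of all genes, 36.9% and 35.9% were called in these steps. In T209 against T210, GRMZM2G408158 (-1.02, adjusted p = 0.0169) and vp14 (-0.39, adjusted p = 0.00748) were lower, where 40.0% of all genes were called, 16.9% being lower. ccd7 stayed at or below 0.213 FPKM and was not tested.

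**Figure D4:**
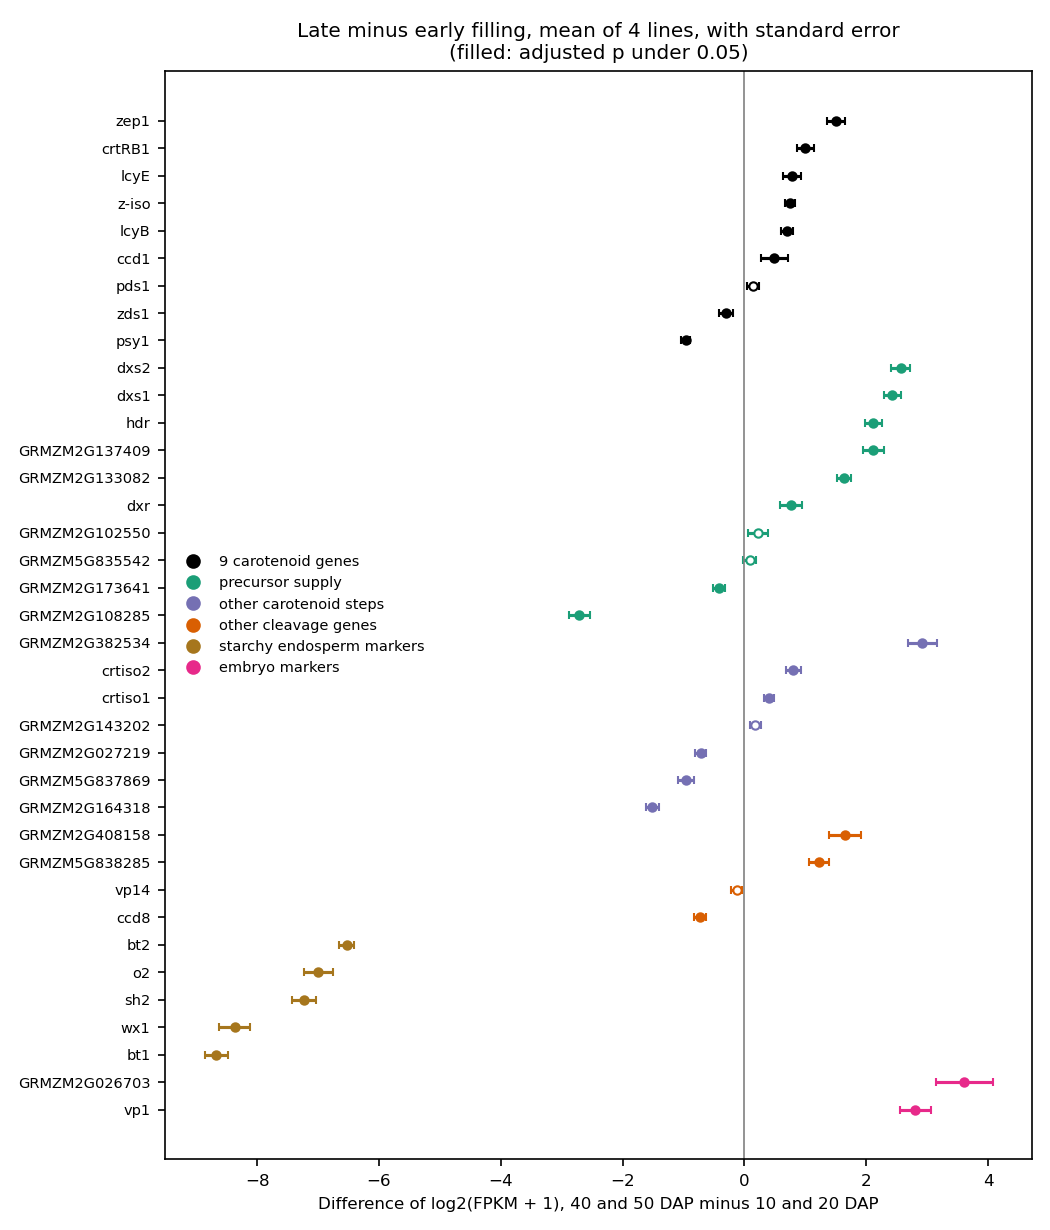
Difference of log2(FPKM + 1) of late (40 and 50 DAP) minus early (10 and 20 DAP) filling (horizontal axis), averaged over 4 lines, for the 9 genes, 3 lists of other pathway genes, and tissue markers (rows), with bars of 1 standard error and filled points where the adjusted p was under 0.05. The 9 genes lie between -0.97 (psy1) and 1.50 (zep1), the starchy endosperm markers between -6.53 and -8.67, and the embryo markers at 2.80 and 3.61.

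Across the 20 group means of log2(FPKM + 1), the 9 genes did not share a course. psy1 ran opposite to zep1 (Pearson's r = -0.87), z-iso (r = -0.78), and lcyB (r = -0.77). z-iso and crtRB1 had r = 0.79, and pds1 and zds1 had r = 0.72. The highest r of lcyE with another of the 9 genes was 0.60, with ccd1. These values describe 20 groups that share lines and stages, and are given with no test.

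The genes most like each of the 9 over the same 20 group means were sought among all tested genes with a GRMZM name or symbol. For lcyE these were GRMZM2G024374 (r = 0.929) and GRMZM2G070563 (r = 0.922), and for zep1 GRMZM2G155980 (r = 0.960) and GRMZM2G171466 (r = 0.956). For psy1 they were GRMZM2G129218 (r = 0.950) and GRMZM2G121228 (r = 0.949), and for z-iso GRMZM2G123842 (r = 0.944) and GRMZM2G118005 (r = 0.941). GRMZM2G411084 (r = 0.906) and GRMZM2G174192 (r = 0.890) were most like lcyB, and GRMZM2G131020 (r = 0.899) and GRMZM2G155285 (r = 0.887) most like crtRB1. The pairs most like pds1 (GRMZM2G056996 and GRMZM2G153275, r = 0.901) and zds1 (GRMZM2G439049 and GRMZM2G086093, r = 0.944) were each 2 names with identical values. ccd1 had the least similar neighbors, GRMZM2G082686 (r = 0.815) and GRMZM2G027478 (r = 0.800).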

How the data were processed

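RNA sequencing was performed on kernels of 4 inbred lines at 5 DAP, with 2 ears in each of the 20 groups. The authors calculated FPKM from gene length and read counts and deposited 1 table of 65196 rows, of which 35991 carry GRMZM names and 25650 are assembled loci. The submitters' processing notes name Bowtie 0.12.2, Cuffdiff, and the genome B73 RefGen_v3 without their roles. FPKM totals were 544588 to 683241 per library and are not depths. Relative depth was fitted to the steps between values under 1 FPKM and lay between 0.612 and 2.30. No pair of the 40 libraries was identical, and all columns were mapped.

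The line, DAP, and repeat of each library came from its label. The 43394 genes that reached 1 FPKM in 2 or more libraries were tested in limma 3.58.1 (R 4.3.3) on the scale log2(FPKM + 1), with a mean for each group, empirical Bayes moderation with a trend, two-sided tests, and Benjamini-Hochberg adjustment. The analysis was tested on simulated data. The 9 genes, the lists, and the tests were chosen with earlier results of these data known. The genes named are the 9, the genes of the lists that passed a test or the filter did not keep, tissue markers, and the 2 named genes most like each of the 9. RefSeq (Zm-B73-REFERENCE-NAM-5.0) was used for names alone, and no coordinates or sequences are given. Equal ear numbers mark no shared plant or day, and deviations from the group means correlated between equal numbers with r of -0.370 to 0.466 over 190 pairs of groups (over 0.1 in 35), so that the number was no term of the model. Other settings tried were a pseudocount of 0.1, no filter, rescaling by the median ratio, the ear number as a block, the 2 lines of a comparison alone, and each library left out.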

Additional observations from a re-analysis of the deposited data

Results flagged for a closer look

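The courses of lcyE and psy1 over time differed between lines by a limma test, though not in every setting. The late minus early change of lcyE was larger in T191 than in T147 by 1.55 and larger in T209 than in T210 by 1.50, both past the limma threshold (adjusted p = 0.0193 and 0.0131). Over all 4 lines and 5 DAP, a moderated F test for different courses gave 3.20 for lcyE (adjusted p = 0.0360) and 2.94 for psy1 (adjusted p = 0.0499), where 22.9% of all genes were called. The F test of lcyE held in 22 of the 40 fits without 1 library and that of psy1 in 6 of 40. With a pseudocount of 0.1, the F test of lcyE (adjusted p = 0.311) and both its late minus early differences (adjusted p = 0.116 and 0.115) were lost, and with no filter its F test was lost as well (adjusted p = 0.0663). The F test of psy1 was lost with the ear number as a replicate block (adjusted p = 0.0603). Without the 2 libraries of high ccd1, both F tests were lost (adjusted p = 0.0574 for lcyE and 0.101 for psy1). The other 7 genes did not pass it.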

How the results depend on the processing

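Over the 66 results of single genes, 57 kept their direction and side of the threshold with a pseudocount of 0.1, 61 with no filter, 52 with libraries rescaled by the median ratio, 56 without the 2 libraries of high ccd1 (an alternative chosen after seeing the data), and 21 of 21 with the 2 compared lines alone. With the ear number as a replicate block, which the design does not pair, 65 of 66 kept their side, and the F test of psy1 missed it (2.83, adjusted p = 0.0603 from limma). Of 2640 fits without 1 library, 2474 kept their side, 135 lost it, 30 gained it, and 1 turned direction, in zds1 for T209 minus T210 at 40 DAP (-0.92 to 0.18). lcyE late minus early between lines, and its F test (1.56, adjusted p = 0.311), were lost with the pseudocount of 0.1. The number of all genes called held within 1.5 times in the comparisons averaged over DAP. Within DAP it moved to 6009 (3772 in the report) for T191 minus T147 at 50 DAP with no filter, and to 2573 (5994 in the report) at 40 DAP without the 2 libraries of high ccd1. Without 1 library, T191 minus T147 called 1489 to 2842 genes at 10 DAP, 875 to 6158 at 20 DAP, 2413 to 5808 at 30 DAP, 2703 to 6901 at 40 DAP, and 1748 to 4716 at 50 DAP. T209 minus T210 called 1949 to 4859, 1068 to 3426, 2500 to 5954, 7089 to 12514, and 3327 to 8195 genes at these times. Rescaling moved the median of all genes by -0.126 for T209 minus T210 at 40 DAP, where lcyE then differed by 2.04, and by -0.116 and -0.204 for the late minus early differences of T191 minus T147 and T209 minus T210, where lcyE then had 1.46 and 1.29, each still past the threshold. The cause was not tested for any of these changes. Genes near 0 FPKM, lcyE in T147 and T210 and psy1 at 50 DAP among them, rest on few reads of unknown number.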
